A study of Prunus persica with 16 samples.

Results

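The dormancy-associated MADS-box cluster of peach (DAM1 to DAM6) was followed in buds of TropicBeauty trees after hydrogen cyanamide (HC), a compound used in orchards to make dormant buds open earlier. The 6 genes were taken by identifier, Prupe.1G531100 (DAM1), Prupe.1G531200 (DAM2), Prupe.1G531300 (DAM3), Prupe.1G531400 (DAM4), Prupe.1G531600 (DAM5) and Prupe.1G531700 (DAM6), out of 26873 identifiers in the deposited matrix. The files pair no identifier with a gene name, so the DAM names rest on general knowledge of the peach annotation. Of the 6, 4 (DAM1, DAM4, DAM5 and DAM6) were measured and passed the filter on low values (4 or more libraries at an FPKM of 1 or above), as did 16596 identifiers in all. DAM2 and DAM3 were listed at 0 in all 16 libraries, as were 6275 identifiers in all.

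DAM genes encode MADS-box transcription factors of the same clade as the Arabidopsis floral repressor SVP (Short Vegetative Phase). In peach they lie in tandem on chromosome 1, and the evergrowing mutant, which lacks part of the cluster, keeps growing when wild-type trees set dormant buds. DAM5 and DAM6 are known as the copies whose transcripts decline with winter chilling, while other copies follow the season from growth cessation onward.

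The 4 groups were HC-treated and untreated control trees at 7 days and HC-treated and untreated control trees at 3 days after the spray, with 4 libraries each. The trees were 5 years old, grafted on Floridaguard rootstock, and had met 11 of their 150 chilling hours. HC-treated trees received 1% (v/v) HC with 0.15% (v/v) surfactant, and no surfactant is stated for the controls, so the effects of HC and surfactant cannot be told apart. The labels give 4 trees per treatment and do not say which tree gave which library. With 4 libraries per treatment on each day, the same trees may have given buds on both days. The tests treat the 16 libraries as independent.

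Levels are in FPKM (fragments per kilobase of transcript, scaled to the size of the library), which can be compared between copies because they are per length. Reads recovered from the FPKM (see the methods) ranged from 555000 to 22000000 per library, with a median of 4730000. The shallowest libraries were control replicate 1 at 7 days (555000 reads) and control replicate 2 at 3 days (1420000 reads). The latter had the fewest identifiers above 0 of all libraries, at 8667, against 10356 in the shallower one. DAM6 had between 441 and 9219 estimated reads in a library, DAM4 between 193 and 2380, DAM1 between 110 and 2439, and DAM5 between 40 and 2755. Because the copies are alike in sequence, reads can be assigned to the wrong copy, and the level of each, the zeros of DAM2 and DAM3 included, is uncertain. No marker genes of bud tissue could be checked, since the identifiers carry no names.

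DAM6 was the most abundant copy in all 16 libraries and was lower in HC than in control buds at both days. At 3 days it had 543, 765, 600.3 and 634 FPKM in HC buds (replicates 1 to 4), against 1120.4, 976, 1125 and 946 FPKM in control buds. At 7 days it had 626, 799.95, 679 and 689.8 FPKM in HC buds, against 1147, 1156, 1595 and 1367 FPKM in control buds. All 4 HC libraries lay below all 4 control libraries on each day, and HC replicate 2 was the highest HC library both times. The HC mean was 61% of the control mean at 3 days and 53.1% at 7 days. On the log2(FPKM + 1) scale the HC effect was -0.72 ± 0.15 at 3 days (SE, n = 4 and 4, limma adjusted p = 0.013) and -0.90 ± 0.15 at 7 days (limma adjusted p = 0.015). In bulk buds, less RNA per cell and fewer cells that express the gene cannot be told apart. The 3-day call was lost without HC replicate 1 (limma adjusted p = 0.062) or control replicate 3 (0.051). The 7-day call was lost without HC replicate 4 (0.055) and in a fit of the 7-day libraries alone (0.068), with fold changes between -0.90 and -0.65 in these fits.

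**Figure D1:**
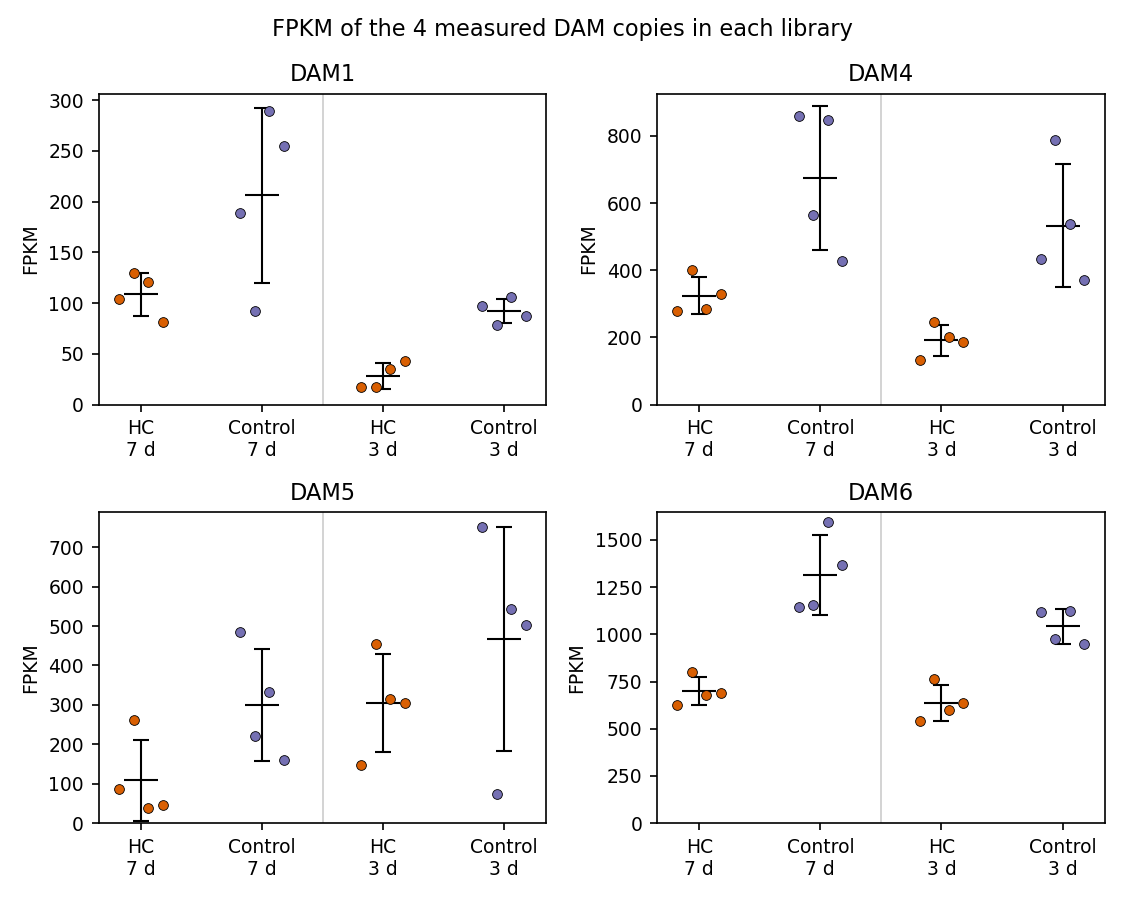
FPKM of the 4 measured DAM copies (vertical axes from 0, a scale per panel) in each of the 16 libraries, with replicates 1 to 4 from left to right within a group, and the mean ± SD in black. HC libraries of DAM6 and DAM4 lie below the control libraries of the same day on both days, those of DAM1 only at 3 days, and those of DAM5 overlap with control on both days.

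DAM4 was lower in HC than in control buds at 3 days. It had 132, 245, 203 and 186 FPKM in HC buds, against 435, 788, 537 and 371 FPKM in control buds at 3 days. The groups did not overlap, and control replicate 2, a shallow library, was the highest. The HC mean was 36.0% of the control mean, a log2 fold change of -1.45 ± 0.27 (SE, n = 4 and 4, limma adjusted p = 0.0059). Without the 2 shallowest libraries it was -1.24 (limma adjusted p = 0.013). At 7 days DAM4 had 279, 399, 286 and 330.35 FPKM in HC buds, against 860.5, 565, 846 and 428 FPKM in control buds. The groups again did not overlap, but control replicate 4 stood only slightly above the highest HC library. The 7-day fold change of -1.01 ± 0.27 did not pass over all genes (limma adjusted p = 0.10).

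DAM1 was the copy with the lowest fold change of HC against control buds at 3 days. It had 17.2, 17.4, 35.1 and 43.2 FPKM in HC buds, against 97.35, 78.9, 106 and 87.5 FPKM in control buds. The control libraries were close together, and the HC libraries split into a lower and a higher pair without reaching control. The HC mean was 30.5% of the control mean (log2 fold change -1.78 ± 0.37, SE, n = 4 and 4, limma adjusted p = 0.012), and the call was lost without HC replicate 1 (-1.59, limma adjusted p = 0.058). At 7 days DAM1 had 104, 129, 120.5 and 81.4 FPKM in HC buds, against 188, 92.3, 289 and 255 FPKM in control buds. Control replicate 2 lay within the HC range, and the other 3 control libraries lay above it. The HC mean was 52.8% of the control mean, with a fold change of -0.82 ± 0.37 that did not pass (limma adjusted p = 0.42).

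DAM5 passed in neither HC comparison. Its coefficient of variation was the largest of the 4 copies in 3 groups, and in HC buds at 3 days that of DAM1 was larger (46.3% against 41.0%). At 3 days it had 147, 453, 314 and 305 FPKM in HC buds, against 750.3, 72.8, 544 and 503 FPKM in control buds. Control replicate 2 had the lowest value of the day, on 40 estimated reads, while the other 3 control libraries lay above all HC libraries. The fold change was -0.31 ± 0.68 (SE, n = 4 and 4, limma adjusted p = 0.91). It was -1.06 without the 2 shallowest libraries (limma adjusted p = 0.46), 0.06 without control replicate 1 and 0.0052 without HC replicate 1. At 7 days DAM5 had 86.3, 261, 39.7 and 46.3 FPKM in HC buds, against 485, 220.4, 334 and 159 FPKM in control buds. HC replicate 2 overlapped with control, and the other 3 HC libraries lay below all control libraries. The fold change of -1.76 ± 0.68 did not pass (limma adjusted p = 0.34). Of the tested genes 1.08% had a lower fold change at 7 days, and 28.1% had one lower than DAM5 at 3 days. For the other copies at 7 days these percentages were 5.05 (DAM4), 6.41 (DAM6) and 7.77 (DAM1).

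All 4 measured copies had negative HC fold changes at both days. At 3 days 3 of the 4 (DAM1, DAM4 and DAM6) passed the test in the lower direction, where 0.735% of the 16596 tested genes did. At 7 days 1 of the 4 (DAM6) passed in that direction, where 0.121% of the tested genes did. HC and control libraries did not overlap, with HC lower, for 3 of the 4 copies at 3 days (3.56% of tested genes) and for 2 of the 4 (DAM4 and DAM6) at 7 days (1.45% of tested genes). The median fold change of the 4 copies was -1.08 at 3 days and -0.96 at 7 days, while that of all tested genes was 0.15 and 0.27. Without the 2 shallowest libraries the median of all tested genes was -0.043 at 3 days and 0.148 at 7 days. DAM1 and DAM4 each had a smaller HC effect at 7 than at 3 days, and DAM5 and DAM6 a larger one, but no difference between the days passed. That difference was 0.97 ± 0.52 for DAM1, 0.43 ± 0.38 for DAM4, -1.45 ± 0.96 for DAM5 and -0.19 ± 0.21 for DAM6, with limma adjusted p from 0.59 to 0.83. For DAM5 it was -0.43 without the 2 shallowest libraries (limma adjusted p = 0.88). The difference between the days passed for 0.488% of tested genes. Of the 4 copies, 0 had an unadjusted limma p under 0.05, which 1600 of the 16596 tested genes had. Voom on the estimated reads also called 0 of the 4, and 221 of its 16508 genes.

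**Figure D2:**
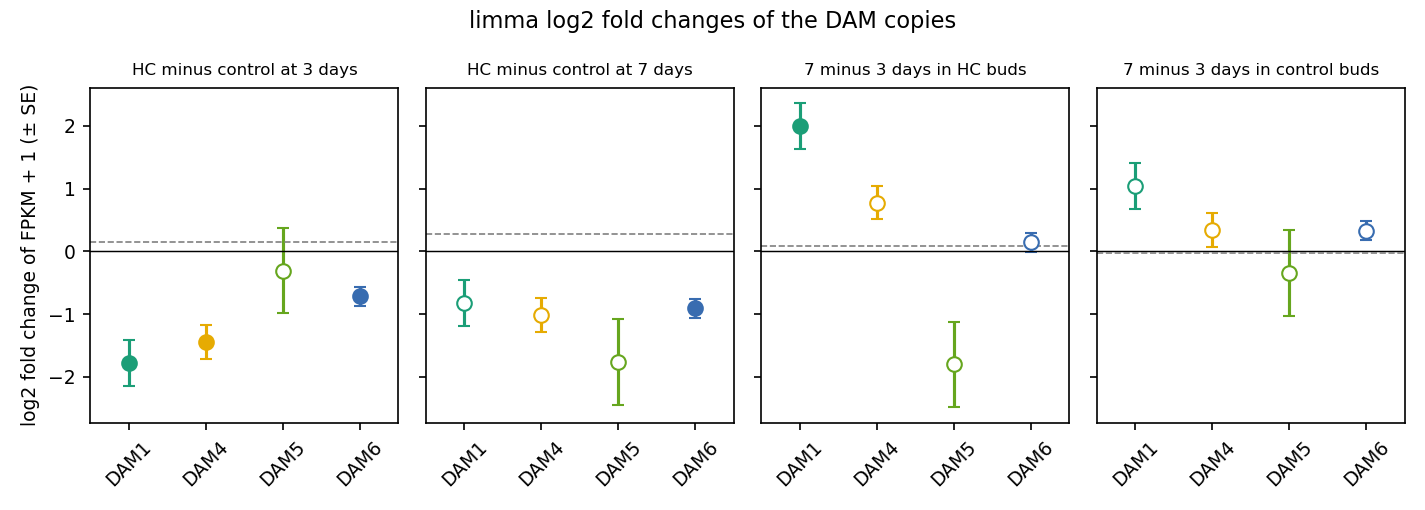
Log2 fold changes of FPKM + 1 from limma (vertical axis, ± SE) for each measured DAM copy in 4 comparisons. Filled points passed at an adjusted p under 0.05, open points did not, and the dashed line is the median of all tested genes. All 4 copies lie below 0 in both HC comparisons, and DAM1 and DAM5 lie on opposite sides of 0 in both comparisons of 7 with 3 days.

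In HC buds DAM1 rose between the days, to a mean of 109 ± 21.1 FPKM at 7 days, against 28.2 ± 13.1 FPKM at 3 days (SD, n = 4 each). All 4 HC libraries of DAM1 at 7 days lay above all 4 at 3 days, a separation in that direction that 10.3% of tested genes showed. The log2 fold change of DAM1 with time was 2.00 ± 0.37 (SE, limma adjusted p = 0.0018), and 1 of the 4 copies passed in the higher direction, where 3.62% of tested genes did. DAM4 averaged 324 ± 55.3 FPKM at 7 days and 191 ± 46.7 FPKM at 3 days in HC buds, without overlap but also without passing (0.77 ± 0.27, limma adjusted p = 0.099). DAM5 averaged 108 ± 104 FPKM at 7 days and 305 ± 125 FPKM at 3 days in HC buds, and did not pass either (-1.80 ± 0.68, limma adjusted p = 0.15). Without the 2 shallowest libraries, which are both control libraries and enter only through the shared spread, both passed (limma adjusted p = 0.038 for DAM4 and 0.027 for DAM5). That fit called 1135 of its 16523 genes higher and 851 lower, against 600 and 434 of 16596 in the main test. DAM5 also passed without HC replicate 2 of 7 days (-2.36, limma adjusted p = 0.044) or control replicate 2 of 3 days (-1.80, limma adjusted p = 0.031). DAM6 was at 699 ± 72.9 FPKM at 7 days and 636 ± 94.0 FPKM at 3 days in HC buds, and did not pass (0.14 ± 0.15, limma adjusted p = 0.71).

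In control buds 0 of the 4 copies passed between the days by limma, where 7.36% of tested genes did in either direction. DAM1 and DAM6 had an unadjusted limma p under 0.05, as had 3456 of the 16596 tested genes. Voom on the estimated reads called both, among 1113 called of its 16508 genes. DAM1 averaged 206 ± 86.6 FPKM at 7 days and 92.5 ± 11.9 FPKM at 3 days in control buds (log2 fold change 1.03 ± 0.37, limma adjusted p = 0.10, 0.021 without control replicate 2 of 7 days). DAM6 averaged 1316 ± 212 FPKM at 7 days and 1042 ± 94.1 FPKM at 3 days, without overlap between the libraries (0.33 ± 0.15, limma adjusted p = 0.21). A separation in that direction was shown by 5.56% of tested genes. DAM4 (0.34 ± 0.27, limma adjusted p = 0.51) and DAM5 (-0.35 ± 0.68, limma adjusted p = 0.83) did not pass, and the value of DAM5 was 0.02 without control replicate 1 of 3 days, -1.10 without control replicate 2 of 3 days, -1.37 without the 2 shallowest libraries, -1.18 with quality weights and -1.31 under voom, with limma adjusted p of 0.057 or above in these fits.

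By group mean, DAM6 and DAM4 had the same order of the 4 groups, and DAM1 and DAM5 each had another. DAM6 was lowest in HC buds of 3 and 7 days, which overlapped, followed by control buds of 3 days and then of 7 days, each step without overlap. DAM4 was lowest in HC buds of 3 days, followed without overlap by HC buds of 7 days, which overlapped with control buds of 3 days, as these did with control buds of 7 days. DAM1 was lowest in HC buds of 3 days, followed without overlap by control buds of 3 days, which overlapped with HC buds of 7 days, as these did with control buds of 7 days. DAM5 was lowest in HC buds of 7 days, then control buds of 7 days, HC buds of 3 days and control buds of 3 days, and neighbours in that order overlapped throughout.

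DAM6 made up the largest share of the summed FPKM of the cluster in every group. Its share was 55.7% ± 6.10 in HC buds and 49.0% ± 1.82 in control buds at 3 days (SD, n = 4 each). At 7 days it was 57.0% ± 4.67 in HC buds and 53.4% ± 8.13 in control buds. DAM4 held 16.4% ± 0.844 in HC buds and 25.5% ± 10.7 in control buds at 3 days, and 26.2% ± 1.72 in HC buds and 26.7% ± 5.31 in control buds at 7 days. Its share at 3 days was between 15.7% and 17.6% in HC buds, below all control libraries, which began at 18.1%. DAM5 held 25.4% ± 5.56 in HC buds and 21.2% ± 12.05 in control buds at 3 days, and 7.97% ± 5.96 in HC buds and 11.8% ± 4.56 in control buds at 7 days. Its share in HC buds at 7 days was 16.4% in replicate 2 and averaged 5.15% without it. DAM1 was the smallest share at 3 days, with 2.49% ± 1.11 in HC buds and 4.34% ± 0.294 in control buds. At 7 days DAM1 held 8.85% ± 1.57 in HC buds and 8.13% ± 3.02 in control buds.

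**Figure D3:**
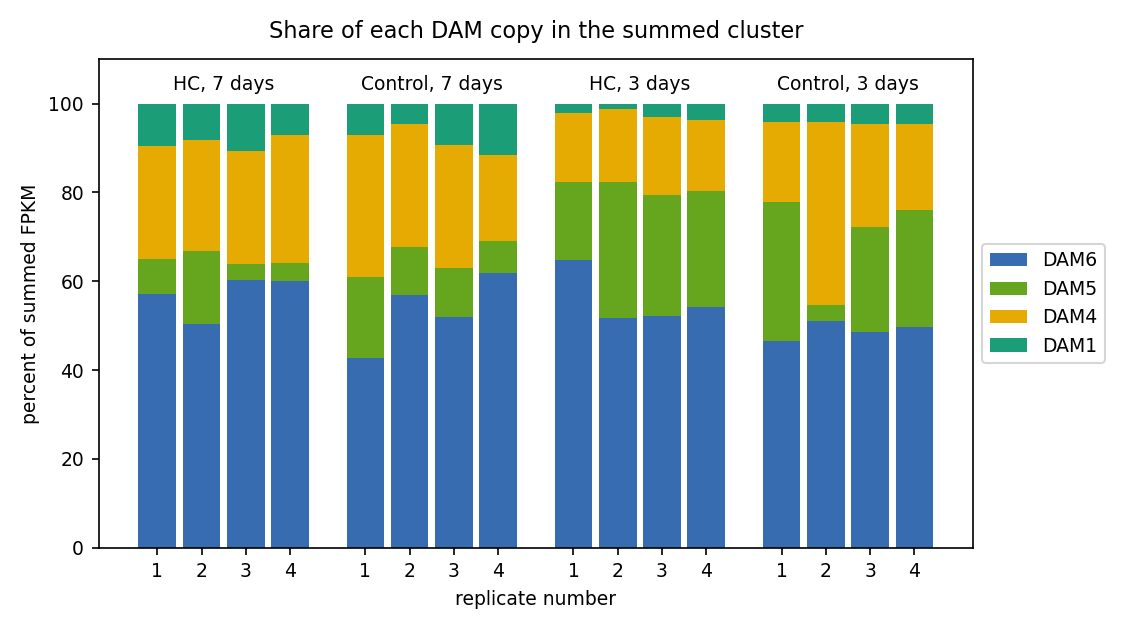
Share of each measured DAM copy in the summed FPKM of the cluster (vertical axis, percent), 1 bar per library. DAM6 fills between 42.8% and 64.7% of every bar, and the DAM5 part is between 3.53% and 18.1% at 7 days and between 17.6% and 31.2% at 3 days, apart from control replicate 2 of 3 days at 3.80%.

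The summed cluster reached 1160.3 ± 262 FPKM in HC buds and 2134 ± 260.15 FPKM in control buds at 3 days (SD, n = 4 each). It reached 1239.7 ± 234 FPKM in HC buds and 2497 ± 467 FPKM in control buds at 7 days. The highest HC library of a day stood below the lowest control library on both days, at 1480.4 against 1907 FPKM at 3 days and 1589.8 against 2033 FPKM at 7 days. The order of DAM4 and DAM5 was counted library by library. At 7 days DAM4 was above DAM5 in all 4 HC and all 4 control libraries, whereas at 3 days it was above DAM5 in 0 of 4 HC libraries and 1 of 4 control libraries (replicate 2). The mean of DAM4 was nevertheless above that of DAM5 in control buds at 3 days, at 532 against 467 FPKM. DAM1 was above DAM5 in 3 of 4 HC and 1 of 4 control libraries at 7 days, and in 0 of 4 HC and 1 of 4 control libraries at 3 days.

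Ratios between copies of a library, taken on FPKM + 1, test whether HC moved the copies by unequal amounts. At 3 days the log2 ratio of DAM1 to DAM6 was -4.55 ± 0.72 in HC buds and -3.48 ± 0.10 in control buds (SD, n = 4 each). That of DAM4 to DAM6 was -1.75 ± 0.21 in HC buds and -1.02 ± 0.49 in control buds. In both ratios all HC libraries lay below all control libraries, so DAM1 and DAM4 were lower relative to DAM6 in HC than in control buds. The differences were -1.06 ± 0.36 and -0.73 ± 0.27 (SE), each with p = 0.029 by a two-sided exact permutation test, the smallest p that 4 against 4 libraries can give. Adjusted over the 12 ratio comparisons (6 pairs of copies at 2 days), both had an exact permutation p of 0.17 and did not pass. With only these 2 ratios at that smallest p, an adjusted p under 0.05 was out of reach. Not passing therefore does not show that HC moved the copies by equal amounts. The difference for DAM4 to DAM6 was -0.49 without control replicate 2. For the other 4 pairs at 3 days and all 6 pairs at 7 days HC and control libraries overlapped, with adjusted exact permutation p from 0.23 to 0.94. At 7 days the ratio of DAM1 to DAM6 was -2.69 ± 0.26 in HC buds and -2.78 ± 0.57 in control buds, and that of DAM4 to DAM6 was -1.12 ± 0.11 in HC buds and -1.01 ± 0.52 in control buds. The 7-day differences were 0.09 ± 0.31 for DAM1 to DAM6 and -0.11 ± 0.26 for DAM4 to DAM6 (SE), and each changed sign without 1 control library (-0.20 without replicate 2 and 0.09 without replicate 1).

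**Figure D4:**
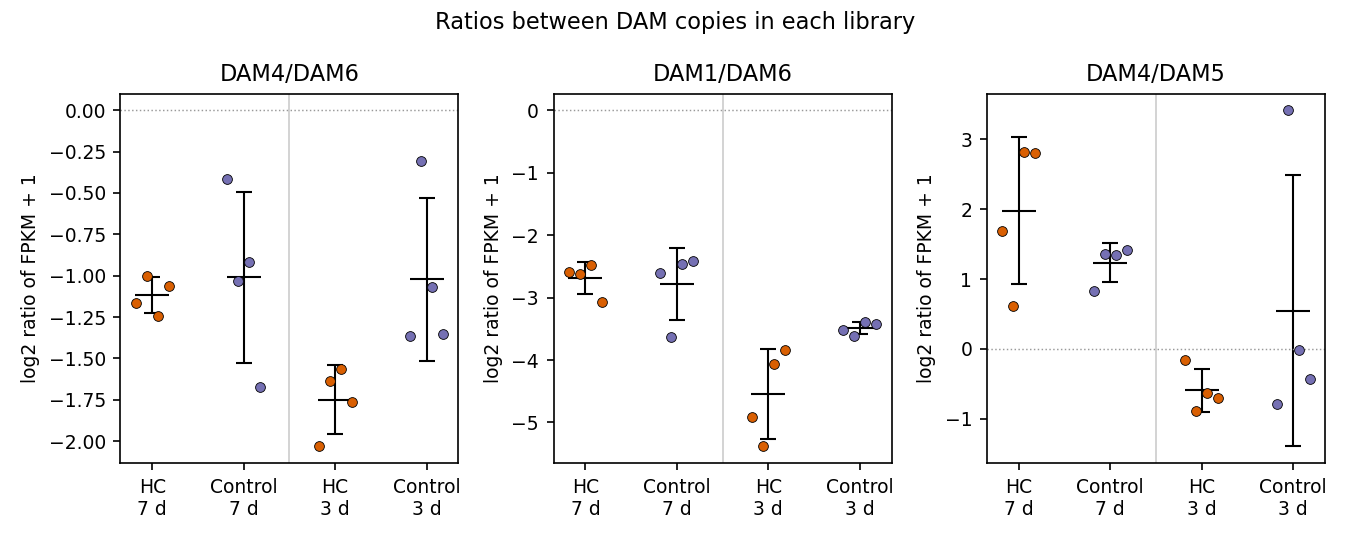
Log2 ratios of FPKM + 1 between DAM copies (vertical axes, a scale per panel) in each library, with the mean ± SD in black. DAM4/DAM6 and DAM1/DAM6 are lower in all HC than in all control libraries at 3 days and overlap at 7 days, and DAM4/DAM5 is above 0 in all 8 libraries at 7 days and below 0 in 7 of 8 at 3 days.

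The ratios were also compared between the days, a test chosen after the data were seen. In HC buds 5 of the 6 ratios had no overlap between 7 and 3 days. The 6 ratios are built from 4 copies, so these separations are not independent of each other. DAM4 to DAM5 was 1.98 ± 1.06 at 7 days and -0.60 ± 0.31 at 3 days in HC buds (SD, n = 4 each), a difference of 2.58 ± 0.55 (SE). DAM1 to DAM5 differed by 3.80 ± 0.69, DAM1 to DAM6 by 1.86 ± 0.38, DAM1 to DAM4 by 1.23 ± 0.39 and DAM4 to DAM6 by 0.63 ± 0.12, all higher at 7 days. Each had the smallest exact permutation p of 0.029 and an adjusted p of 0.069 over this family of 12, so none passed. With only 5 ratios at that smallest p, an adjusted p under 0.05 was out of reach. In control buds all 6 ratios overlapped between the days, with adjusted exact permutation p from 0.24 to 0.94. DAM4 to DAM5 in control buds was 1.23 ± 0.28 at 7 days and 0.54 ± 1.94 at 3 days. Its difference of 0.69 became 1.65 without control replicate 2 of 3 days.

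Over the 16 libraries the levels of DAM4 and DAM6 had a Pearson correlation of 0.85 on the log2(FPKM + 1) scale, DAM1 and DAM4 of 0.76 and DAM1 and DAM6 of 0.73, with group differences kept and given as a description. DAM5 had correlations of -0.04 with DAM1, 0.17 with DAM4 and 0.40 with DAM6. Once group means were removed, the 6 correlations lay between 0.09 (DAM1 and DAM4) and 0.42 (DAM5 and DAM6). For DAM4 and DAM6 the within-group values were r = 0.37 (permutation p = 0.23) and rho = 0.28 (permutation p = 0.38). For DAM5 and DAM6 they were r = 0.42 (permutation p = 0.090) and rho = 0.43 (permutation p = 0.099). None of the 6 pairs passed after adjustment, with permutation p adjusted over the pairs from 0.41 to 0.78 for r and from 0.31 to 0.78 for rho. Without the 2 libraries farthest from the median of the first copy, r lay between 0.02 and 0.62. Without the 2 shallowest libraries, an alternative added after the data were seen, 3 pairs passed. These were DAM4 and DAM6 (r = 0.78, adjusted permutation p = 0.036), DAM4 and DAM5 (r = 0.68, 0.027) and DAM5 and DAM6 (r = 0.62, 0.044). DAM4 and DAM5 alone passed when only control replicate 2 of 3 days was left out (r = 0.73, adjusted permutation p = 0.014).

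**Figure D5:**
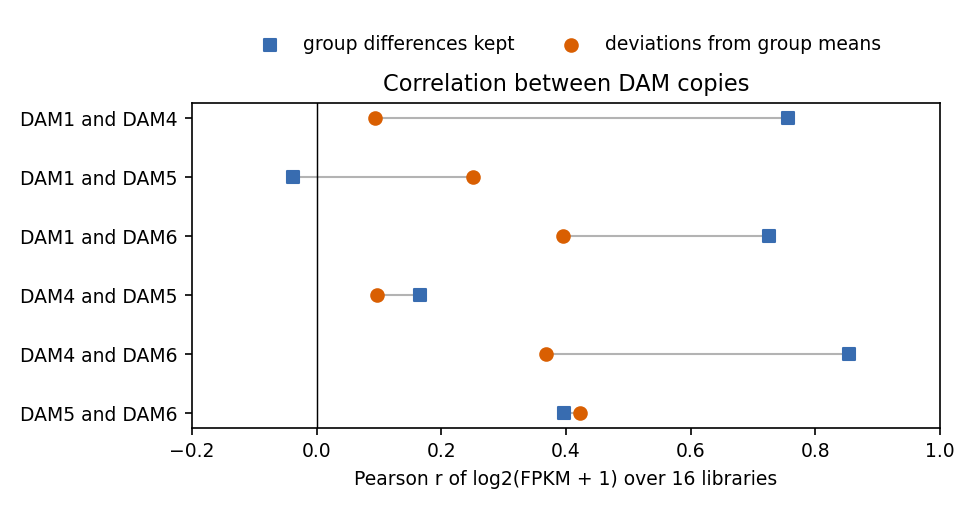
Pearson r of log2(FPKM + 1) between pairs of DAM copies over 16 libraries (horizontal axis), with group differences kept (squares) and as deviations from the group means (circles). The 3 pairs among DAM1, DAM4 and DAM6 lie between 0.73 and 0.85 with group differences and between 0.09 and 0.40 without them.

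Among all 26873 identifiers, ranked by group mean FPKM, DAM6 was at rank 311 in HC buds and 172 in control buds at 3 days, and at rank 275 in HC buds and 128 in control buds at 7 days. Over single libraries its rank ran from 257 to 352 in HC buds and from 149 to 192 in control buds at 3 days. DAM4 was at rank 938 in HC buds and 364 in control buds at 3 days, and at 605 in HC buds and 288 in control buds at 7 days. DAM1 stood furthest down the list at 3 days, at rank 4405 in HC buds (16.4% from the top), against 1751 in control buds (6.52%). At 7 days DAM1 was at rank 1572 in HC buds and 870.0 in control buds. DAM5 was at rank 644 in HC buds and 409 in control buds at 3 days, and at 1578 in HC buds and 636 in control buds at 7 days. Single libraries put DAM5 between ranks 729 and 3693 in HC buds and 405 and 1102 in control buds at 7 days, and without HC replicate 2 its rank in HC buds at 7 days was 2743.

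Of the other identifiers numbered between or beside the DAM copies, Prupe.1G531000 was the highest by group mean in all 4 groups. Prupe.1G531500, numbered between DAM4 and DAM5, had 0 to 2.92 FPKM in HC buds at 7 days, while every control library of that day was at 0. At 3 days it had 1.92 to 15.4 FPKM in HC buds and 3.10 to 21.2 FPKM in control buds. Prupe.1G531000, numbered just before DAM1, overlapped between HC and control buds on both days, with 44.8 to 65.1 FPKM in HC buds and 16.4 to 68.8 FPKM in control buds at 3 days, and 34.1 to 112 FPKM in HC buds and 41.3 to 75.5 FPKM in control buds at 7 days. In HC buds at 3 days all 4 libraries of Prupe.1G531000 lay above all 4 of DAM1. Prupe.1G530900, Prupe.1G531800 and Prupe.1G531900 stayed at or below 30.4 FPKM in every library.

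The tested identifier with the profile most like DAM4 over the 16 libraries was Prupe.6G081700 (r = 0.95 on the log2 scale), and the one most like DAM1 was Prupe.8G195800 (r = 0.94). Prupe.3G287000 was most like DAM6 (r = 0.90) and Prupe.1G535500 most like DAM5 (r = 0.83). Each is the highest of 16592 correlations and is given as a description. Among them, r was 0.8 or more for 71 identifiers with DAM1, 34 with DAM4, 23 with DAM6 and 8 with DAM5.

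The authors' deposited table for 3 days gives log2 fold changes of -1.60 for DAM1 (adjusted p = 3.9e-13), -1.36 for DAM4 (1.9e-05), -0.57 for DAM5 (0.63) and -0.65 for DAM6 (3.2e-06). The authors' deposited table for 7 days gives -1.01 for DAM1 (adjusted p = 0.012), -1.14 for DAM4 (0.12), -1.54 for DAM5 (0.42) and -1.01 for DAM6 (listed as 0). Among all genes of the authors' deposited tables, 8.82% at 3 days and 8.35% at 7 days have an adjusted p under 0.05. DAM2 and DAM3 are in neither of the authors' deposited tables.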

How the data were processed

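Bud mRNA libraries (Illumina TruSeq) were compared in 4 groups of 4, with groups and replicate numbers as labelled. Per the submitters' processing notes, the tools include Trimmomatic, RSEM 1.2.31 and STAR 2.5.2a. Which build was used is not given in the sources used here. FPKM filled the matrix deposited by the authors, as its values show. The authors' deposited tables, 1 per day, held for each gene an adjusted p-value, a signal per treatment and a log2 fold change (HC relative to control), made by an unstated method.

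The main test was limma 3.58.1 (R 4.3.3, trend and robust settings, statmod 1.5.0) on log2(FPKM + 1), fitted over all 16 libraries and the 16596 genes that reached an FPKM of 1 in 4 libraries or more, with Benjamini-Hochberg adjustment and a threshold of 0.05. This scale understates changes of low genes. Ratios between copies were tested by exact permutation (scipy 1.17.1), and correlations by 100000 permutations within groups. p-values measure the spread between these libraries. The fit was tested on simulated data.

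Reads were estimated because FPKM carries no depth. Dividing the deposited signal by FPKM gave a length-like factor for 18510 genes, which differed between the days with a quartile range of 0.013 on the log2 scale. Multiplied by it, low values lay on steps, each taken to be 1 read. Between 89.8% and 99.1% of the low values used per library lay within 0.2 of a whole number. A step fixed beforehand would give 40% by chance, but each step was chosen to fit these same values best. Estimated reads served for depth, for 1 alternative test (voom) and for shares.

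The 6 members, the lists and the tests were chosen with earlier results of these data known. Beyond the members, named identifiers are the 2 on each side of the cluster by number, the 1 within it, and the 1 most correlated with each measured copy. The RefSeq table's 26412 genes shared 0 identifiers with the 26873 of the files, so no sequences or pathway genes are given. Alternatives were other pseudocounts, filters, scalings, weights and blocks, and leaving out libraries.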

Additional observations from a re-analysis of the deposited data

Results flagged for a closer look

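Over 56 sets of 4 libraries (levels, shares and log2 ratios of the copies by group), 4 held a library whose gap to its nearest neighbour was a larger part of the set's range than Dixon's critical value for 4 values allows. Chance flags about 1 in 20 such sets. The log2 ratio of DAM5 to DAM6 was -3.73 in control replicate 2 at 3 days, far below the other 3 control libraries. This library had 40 estimated reads of DAM5. The log2 ratio of DAM1 to DAM6 was -3.63 in control replicate 2 at 7 days, below the other 3. The log2 ratio of DAM4 to DAM5 was 0.82 in control replicate 1 at 7 days, the shallowest library, below the other 3. The share of DAM4 was 28.8% of the summed cluster in HC replicate 4 at 7 days, above the other 3 HC libraries.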

How the results depend on the processing

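The HC fold changes of DAM1, DAM4 and DAM6 kept their sign under all 26 alternatives at both days. Changed filters, the replicate block and fits of only the libraries compared could not move these fold changes. Nor could leaving out a library of the other day. These alternatives acted only on the spread and the adjusted p. Called in the 3-day comparison under 26 of 26 was DAM4 (limma adjusted p 0.00041 to 0.030), under 25 DAM1 (0.0012 to 0.058) and under 24 DAM6 (1.1e-05 to 0.062), and in the 7-day comparison under 24 DAM6 (2.6e-05 to 0.068). With only the libraries compared, DAM6 at 7 days stayed at -0.90 but lost its call. That fit had fewer degrees of freedom, an SE of 0.16 (0.15 in the main test) and 14664 tested genes, and the cause was not tested. Leaving out 1 library gave 3-day HC effects of -2.02 to -1.59 for DAM1, -1.06 to 0.059 for DAM5 and -0.81 to -0.65 for DAM6, and -0.97 to -0.81 for DAM6 at 7 days. Changes with time in HC buds gained calls for DAM4 (0.77 with only the libraries compared and without the 2 shallowest libraries, 0.86 with quality weights) and for DAM5 (-1.62 under voom and -1.80 without the 2 shallowest libraries). Of the 16 fits without 1 library, which gave DAM5 -2.36 to -1.47, 2 called it. In control buds voom gained DAM1 (1.07) and DAM6 (0.38), and leaving out 1 library gave 0.83 to 1.38 for DAM1 and -1.10 to 0.017 for DAM5.

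The number of genes called at 3 days, 301 in the main test, was 869 with quality weights, 895 under voom and 166 to 348 without 1 library. At 7 days, 74 became 44 and 120 with pseudocounts of 0.1 and 5, 48 with the stricter filter, 13 with only the libraries compared, 117 under voom, 43 with the replicate block and 8 to 168 without 1 library. For the difference between the days, 81 became 41 and 125 with these pseudocounts, 227 with quality weights, 221 under voom, 38 with the block and 34 to 107 without 1 library. For time in HC buds, 1034 became 1820 with only the libraries compared, 2977 with quality weights, 2365 under voom, 1986 without the 2 shallowest libraries and 731 to 1604 without 1 library. For time in control buds, 1221 became 578 with only the libraries compared. Median-of-ratios scaling moved the median difference between the days over all genes to -0.02, against 0.10, and its split to 45 higher and 32 lower (59 and 22 in the main test). The split for time in control buds became 673 and 494 (566 and 655 in the main test).

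Same-numbered libraries deviated from their group means with correlations of -0.05 to 0.125 across tested genes, so the numbers were not taken as pairs. At 3 days every HC library still correlated best with the control library of its own number (0.015 to 0.044). At 7 days no HC library did. Fits with the replicate block changed no call of a DAM copy. At 3 days the HC effect on DAM6 with the replicate block was -0.72 (limma adjusted p = 0.026). A paired exact test of 4 ratios could not go below 0.125 and was not run.

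Ratio differences that changed sign without 1 library ranged from -0.31 to 0.74 for DAM5 to DAM6 at 3 days, and at 7 days from -0.079 to 0.54 for DAM1 to DAM4, -0.20 to 0.22 for DAM1 to DAM6 and -0.33 to 0.089 for DAM4 to DAM6. Between the days in control buds, DAM4 to DAM6 ranged from -0.18 to 0.25. Without the 2 shallowest libraries DAM5 to DAM6 was -0.31 at 3 days and DAM4 to DAM6 was 0.089 at 7 days. Correlations without 1 library ranged from -0.067 to 0.27 for DAM1 and DAM4 and from -0.047 to 0.73 for DAM4 and DAM5, which was -0.058 on the linear scale. Without the 2 shallowest libraries the values were 0.68 (DAM4 and DAM5), 0.78 (DAM4 and DAM6) and 0.62 (DAM5 and DAM6).

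Counted in estimated reads, which are not per length, DAM1 held 4.52% (HC) and 7.99% (control) at 3 days and 14.9% and 13.9% at 7 days. DAM4 held 11.5% (HC) and 18.0% (control) at 3 days and 17.0% and 17.9% at 7 days. DAM5 held 17.5% (HC) and 14.8% (control) at 3 days and 5.12% and 7.77% at 7 days. DAM6 held 66.5% (HC) and 59.3% (control) at 3 days and 63.0% and 60.4% at 7 days. Against the shares in FPKM, 11 of these moved by at least the SD of their group and 5 by less. Where a cause is not named here, the cause was not tested.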
